A study of Mus musculus with 235 samples.

Results

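Cx3cr1 and 8 further genes of microglia and of their dialogue with neurons were followed in 8 punched regions of the mouse brain, 4 h after an injection of dexamethasone or vehicle. The 9 genes were chosen by name, and each was found once among the 27998 genes of the count table. They comprise 6 surface receptors (Cx3cr1, P2ry12, P2ry13, Gpr34, Csf1r and Tgfbr1), 2 complement subunits (C1qa and C1qb) and the ligand Cx3cl1. The animals were C57Bl/6 males aged 3 months and kept in groups, and the labels name no transgene or deletion. Of 30 mice, 15 received dexamethasone, a synthetic glucocorticoid, at 10 mg/kg into the peritoneum and 15 received saline, so both arms share the injection and no uninjected group is among the samples. Brains were perfused before the punches were taken, and each punch of each animal gave its own 3′ end library. The regions carry the labels' own abbreviations (PFC, AMY, PVN, CER, dCA1, vCA1, dDG and vDG), with 15 libraries in each region and arm except for 14 in the PFC dexamethasone, PVN vehicle and vCA1 vehicle groups and 13 in the dCA1 dexamethasone group.

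Microglia are the resident macrophages of the brain parenchyma, and in the resting state they carry a set of surface receptors with which they sense neurons and damage. CX3CR1 binds the chemokine CX3CL1 (fractalkine), which neurons make as a membrane-bound protein; P2RY12 and P2RY13 respond to extracellular ADP and guide the processes of the cell; GPR34 recognises lysophosphatidylserine; CSF1R, which binds CSF1 and IL34, is needed for microglial survival, and TGFBR1 transmits TGF-beta signals that maintain microglial identity. C1QA and C1QB are chains of C1q, the first component of the classical complement pathway, which in the healthy brain is made mainly by microglia. Cx3cr1, P2ry12, P2ry13, Gpr34, Csf1r, C1qa and C1qb are largely restricted to microglia and related macrophages in the brain, Tgfbr1 is made by many cell types, and Cx3cl1 is chiefly neuronal.

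Levels are given as CPM (counts per 1000000 counts of the library, after scaling by trimmed mean of M values, TMM). Library totals ranged from 268538 to 1451422 counts with a median of 742957, and RNA integrity numbers from 2.2 to 9.0, with 24 libraries below 5. The 12 genes fixed as microglial markers were all detected, and their summed level had a median between 326 CPM (PVN) and 625 CPM (AMY) in the vehicle groups. Of all libraries, 7 are absent from the authors' variance-stabilised tables, and the 4th dCA1 vehicle library among them stood apart for these genes. It held 297943 counts at an RNA integrity number of 4.2. Cx3cr1 was at 381 CPM against 109.7 to 231 CPM in the other 14, Csf1r at 156 CPM against 28.8 to 82.6 CPM in the other 14 and C1qa at 169 CPM against 25.5 to 76.7 CPM in the other 14, whereas Cx3cl1 lay below the other libraries at 129.8 CPM against 154 to 233 CPM in the other 14. This library lay outside the range of its group for 7 of the 9 members. The 11th vCA1 dexamethasone library did so for 7 members, the 3rd vDG dexamethasone library for 6 and the 4 remaining ones for 1 or 2 each. In 3 of the dexamethasone libraries Cx3cr1 lay above the rest of the group, at 96.6 CPM against 20.0 to 52.2 CPM (4th vCA1 library), 61.3 CPM against 20.0 to 52.2 CPM (11th vCA1 library) and 63.7 CPM against 11.7 to 38.7 CPM (3rd vDG library). Without the 7 libraries the number of members past the threshold was the same in each region.

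The promoters below set 3 of the receptors that fell beside a complement gene of the same cells. Each line gives the 250 bases before the transcription start in RefSeq on GRCm38.p6, read 5′ to 3′ on the gene's strand (minus for all 4 genes). Windows span chr9:120068297-120068546 for Cx3cr1, chr3:59262986-59263235 for P2ry12, chr3:59210883-59211132 for P2ry13 and chr4:136886201-136886450 for C1qb. Capitals mark AGAACA, the core hexamer bound by the glucocorticoid receptor, and AGGAAG, a core bound by ETS factors such as PU.1 (the product of Spi1), on either strand.
Cx3cr1: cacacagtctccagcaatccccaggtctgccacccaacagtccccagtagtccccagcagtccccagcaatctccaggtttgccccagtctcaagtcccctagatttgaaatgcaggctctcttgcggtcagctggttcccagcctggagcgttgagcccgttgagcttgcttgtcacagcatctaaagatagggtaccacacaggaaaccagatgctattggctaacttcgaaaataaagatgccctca
P2ry12: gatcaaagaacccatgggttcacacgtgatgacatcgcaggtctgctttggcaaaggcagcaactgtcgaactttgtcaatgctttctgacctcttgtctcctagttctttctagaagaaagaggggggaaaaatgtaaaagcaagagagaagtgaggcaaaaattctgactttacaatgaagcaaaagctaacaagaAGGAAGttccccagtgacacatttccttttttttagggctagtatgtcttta
P2ry13: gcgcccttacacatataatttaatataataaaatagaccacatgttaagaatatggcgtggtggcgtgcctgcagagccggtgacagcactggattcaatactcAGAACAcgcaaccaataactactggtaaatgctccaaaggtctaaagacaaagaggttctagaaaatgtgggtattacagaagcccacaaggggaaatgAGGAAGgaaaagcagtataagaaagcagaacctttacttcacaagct
C1qb: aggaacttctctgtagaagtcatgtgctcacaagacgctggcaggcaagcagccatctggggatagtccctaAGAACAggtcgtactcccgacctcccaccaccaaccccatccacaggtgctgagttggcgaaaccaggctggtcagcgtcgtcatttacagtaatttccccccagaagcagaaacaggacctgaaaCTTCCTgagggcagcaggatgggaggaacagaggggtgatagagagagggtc
AGAACA was present 146 bases before the start of P2ry13 and 178 bases before that of C1qb, and was found in 16.1% of the 32851 RefSeq windows of this length. AGGAAG began 52 bases before the start of P2ry12 and 47 before that of P2ry13, stood on the minus strand 52 bases before that of C1qb, and was found in 29.5% of all windows. The window of Cx3cr1 held neither sequence. These matches describe letters in the window only. RefSeq windows were matched for 6 of the 9 genes, and Gpr34, Csf1r and C1qa had none.

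In the coordinates of the count table (GRCm38) Cx3cr1 (ENSMUSG00000052336) spans 119901616 to 120068283 of chromosome 9 on the minus strand, and its exons share no base with another gene's. P2ry12 (ENSMUSG00000036353, chromosome 3, 59216272 to 59262871, minus strand) and P2ry13 (ENSMUSG00000036362, chromosome 3, 59207892 to 59210882, minus strand) are neighbours that lie opposite Med12l, with 9 exon bases of P2ry12 shared. Gpr34 (ENSMUSG00000040229) lies on chromosome X from 13632089 to 13640858 on the plus strand. Csf1r (ENSMUSG00000024621, chromosome 18, 61105572 to 61132149, plus strand) shares 871 exon bases, 17.8% of its exon length, with Hmgxb3 on the opposite strand, and whether counting used the strand is not stated, so reads of the pair cannot be told apart there. Tgfbr1 (ENSMUSG00000007613), C1qa (ENSMUSG00000036887) and C1qb (ENSMUSG00000036905) lie on chromosome 4 at 47353222 to 47414931 (plus strand), 136895917 to 136898803 and 136880129 to 136886187 (both minus strand). Cx3cl1 (ENSMUSG00000031778) spans 94772009 to 94782423 of chromosome 8 on the plus strand.

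The first comparison asked, region by region, which of the 9 transcripts differed between the dexamethasone and vehicle arms. Cx3cr1 and P2ry12 fell in all 8 regions, and Tgfbr1 fell in dCA1; Csf1r, C1qa, C1qb and Cx3cl1 passed the test in no region. Of the 7 members that cleared the expression filter, the number past the threshold (edgeR quasi-likelihood test, Benjamini-Hochberg adjusted p under 0.05) was 2 in PFC, where 6.14% of all genes tested passed, 2 in AMY (5.62%), 2 in CER (6.18%) and 2 in PVN (5.63%). It was 3 in dCA1 (4.68%), 2 in vCA1 (5.45%), 2 in vDG (3.93%) and 2 in dDG (3.7%). In dDG the genes called numbered 316, and 543 with the replicate number as a block, where the same number of members passed. All of these members were lower after dexamethasone, a direction taken by 2.08% of genes tested (AMY), 2.04% (vCA1), 2.06% (PVN), 1.37% (dDG), 1.29% (vDG), 2.11% (dCA1), 2.28% (PFC) and 2.28% (CER). P2ry13 and Gpr34 did not clear the filter in any region. In bulk tissue, fewer cells of a type and less RNA per cell cannot be told apart.

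Cx3cr1, the fractalkine receptor, was lower in every dexamethasone library than in every vehicle library of the same region. In AMY it lay between 166 and 316 CPM (median 227) in vehicle libraries and between 25.5 and 82.9 CPM (median 50.8) in dexamethasone libraries. In PFC it lay between 109 and 207 CPM (median 161) in vehicle libraries and between 24.1 and 49.2 CPM (median 33.7) in dexamethasone libraries. In CER it lay between 82.9 and 171 CPM (median 111) in vehicle libraries and between 13.9 and 44.4 CPM (median 19.4) in dexamethasone libraries. The arms did not overlap in any of these regions: the highest dexamethasone library stayed below the lowest vehicle library. The log2 fold changes were -2.19 ± 0.12 (SE) in AMY, -2.17 ± 0.10 (SE) in PFC and -2.34 ± 0.13 (SE) in CER, with adjusted p-values of 7.88e-17, 1.62e-21 and 8.96e-18 (edgeR).

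In PVN, Cx3cr1 ranged between 83.8 and 144 CPM (median 108) in vehicle libraries and between 13.3 and 58.5 CPM (median 26.4) in dexamethasone libraries. In dCA1 it ranged between 109.7 and 381 CPM (median 155) in vehicle libraries and between 24.4 and 61.4 CPM (median 35.8) in dexamethasone libraries. In dDG it ranged between 72.6 and 200.5 CPM (median 144) in vehicle libraries and between 20.3 and 53.2 CPM (median 37.6) in dexamethasone libraries. Again every dexamethasone library was below every vehicle library of its region. In vCA1 the receptor ranged between 105 and 289 CPM (median 163) in vehicle libraries and between 20.0 and 96.6 CPM (median 38.3) in dexamethasone libraries. In vDG it ranged between 80.4 and 266 CPM (median 129) in vehicle libraries and between 11.7 and 63.7 CPM (median 25.5) in dexamethasone libraries. The narrowest gap of the 8 regions was in vCA1, where 1 dexamethasone library reached 96.6 CPM against 105 CPM in the lowest vehicle library. That dexamethasone library is 1 of the 7 absent from the authors' tables. The log2 fold changes in these 5 regions were -2.02 ± 0.13 (SE), -2.17 ± 0.17 (SE), -2.02 ± 0.14 (SE), -2.07 ± 0.16 (SE) and -2.39 ± 0.17 (SE), with adjusted p-values from 8.95e-16 (PVN) to 5.39e-12 (dCA1).

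Over the 8 regions the fall of Cx3cr1 was 4.06-fold (PVN) to 5.25-fold (vDG). Among the genes that cleared the expression filter it was the most negative log2 fold change in 7 regions and the next to most negative in vCA1. With no filter on low counts it ranked between 12 (AMY and vDG) and 47 (dDG) of all genes tested, and Cx3cr1 and P2ry12 again fell in all 8 regions. A complete separation of the arms in this direction held for 0.0978% of genes tested in PFC, 0.0813% in AMY, 0.0324% in PVN and 0.0443% in CER. It held for 0.0438% (vCA1), 0.043% (vDG), 0.0229% (dCA1) and 0.0117% (dDG). In dDG Cx3cr1 was the 1 gene with this separation. Without the libraries absent from the authors' tables, the log2 fold change was -2.06 in dCA1, -2.26 in vCA1 and -2.48 in vDG. Of the 5 dates of punching, 1 held a single vehicle library in each region and was left out of the values within dates. Since the arms did not overlap, every difference within a date or plate had to be negative, and only its size is informative. The differences in mean log2 CPM of Cx3cr1 ran from -2.75 to -1.38 over the other 4 dates and from -2.52 to -1.66 over the 4 plates of each region.

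**Figure D1:**
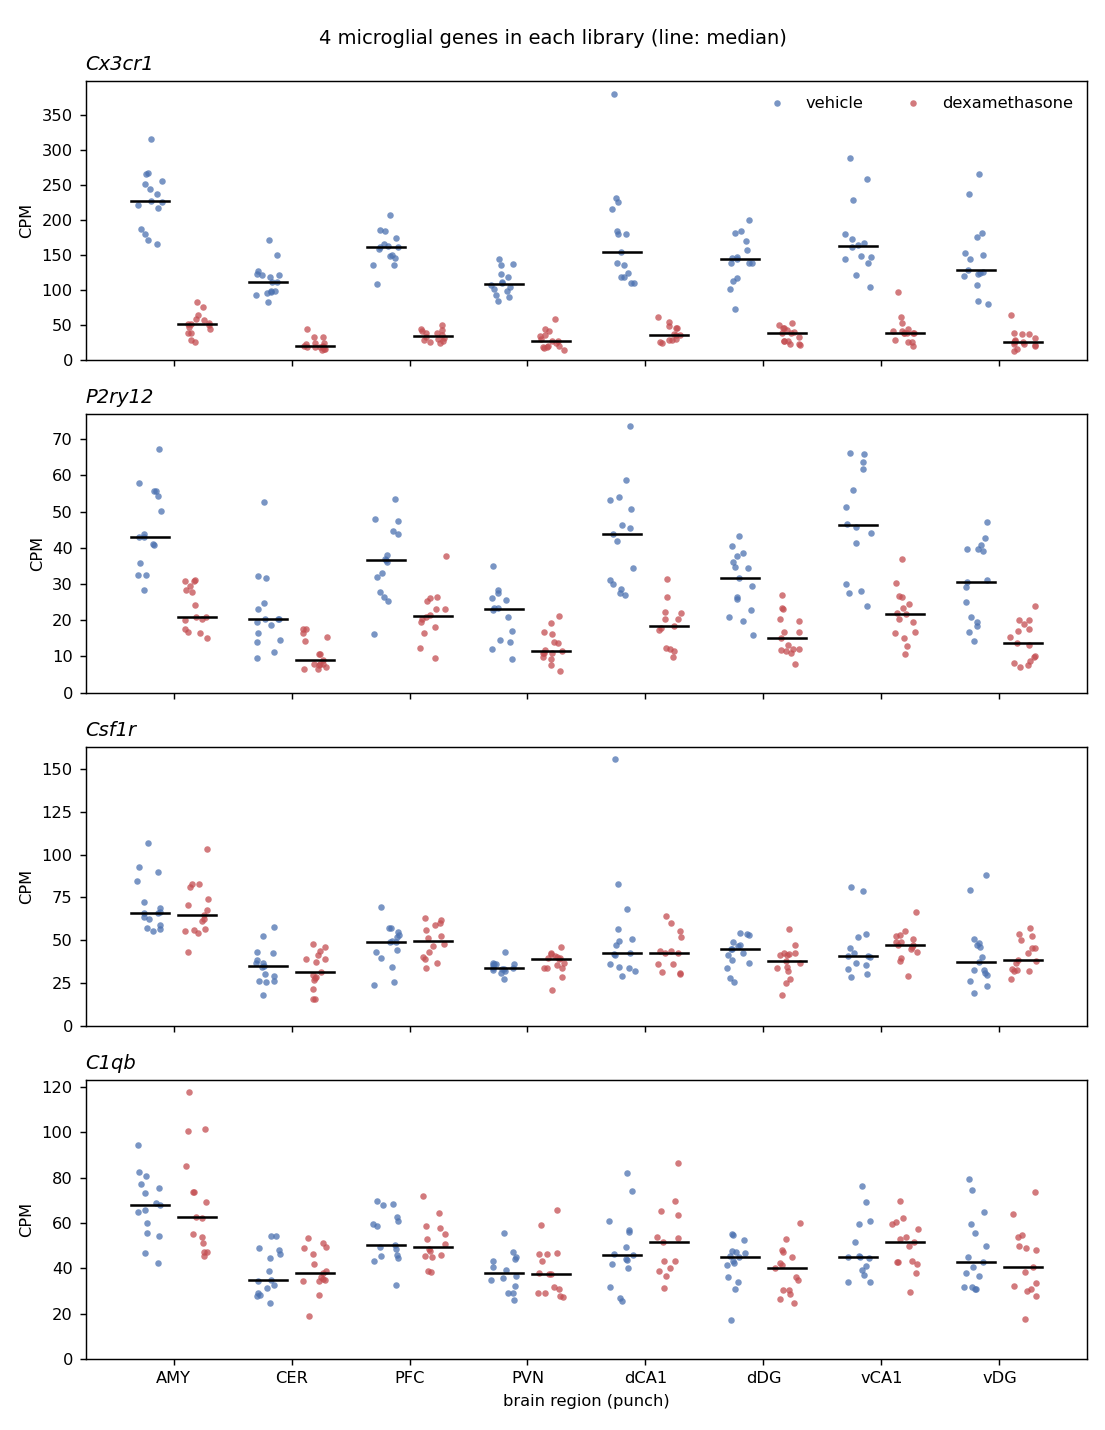
CPM (vertical axis, from 0) of Cx3cr1, P2ry12, Csf1r and C1qb in each library by brain region, with vehicle libraries in blue, dexamethasone libraries in red and a line at each group's median. Cx3cr1 separates the arms in every region, P2ry12 shifts down with overlapping arms, and the arms of Csf1r and C1qb lie over each other; the single vehicle library at 381 CPM in dCA1 is the one that stood apart.

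P2ry12, the ADP receptor through which microglial processes are drawn to sites of injury, fell by a smaller amount. In dCA1 it lay between 26.9 and 73.5 CPM (median 43.7) in vehicle libraries and between 9.94 and 31.5 CPM (median 18.5) in dexamethasone libraries. In AMY it lay between 28.4 and 67.3 CPM (median 43.1) in vehicle libraries and between 15.0 and 31.1 CPM (median 21.0) in dexamethasone libraries. In PFC it lay between 16.1 and 53.4 CPM (median 36.7) in vehicle libraries and between 9.64 and 37.8 CPM (median 21.2) in dexamethasone libraries. The arms overlapped in all 8 regions, from dCA1, where 12 of 13 dexamethasone libraries were below the lowest vehicle library, to PFC, where 2 of 14 were. Its log2 fold change was most negative in dCA1 at -1.17 ± 0.17 (SE) and least negative in PFC at -0.70 ± 0.15 (SE), with -1.12 in vCA1, -1.06 in vDG, -0.97 in AMY, -0.97 in CER, -0.91 in dDG and -0.75 in PVN. Adjusted p-values ran from 1.21e-06 (AMY) to 0.00542 (PVN, edgeR).

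In vCA1, P2ry12 ranged between 24.0 and 66.0 CPM (median 46.2) in vehicle libraries and between 10.6 and 36.8 CPM (median 21.8) in dexamethasone libraries. In vDG it ranged between 14.3 and 47.1 CPM (median 30.4) in vehicle libraries and between 6.98 and 23.9 CPM (median 13.8) in dexamethasone libraries. In dDG it ranged between 15.8 and 43.3 CPM (median 31.7) in vehicle libraries and between 8.04 and 27.1 CPM (median 15.2) in dexamethasone libraries. In these 3 regions 10 of 15 (vCA1), 8 of 15 (vDG) and 8 of 15 (dDG) dexamethasone libraries were below the lowest vehicle library. In CER it ranged between 9.47 and 52.7 CPM (median 20.3) in vehicle libraries and between 6.42 and 17.6 CPM (median 9.15) in dexamethasone libraries. In PVN it ranged between 9.38 and 35.0 CPM (median 23.1) in vehicle libraries and between 5.94 and 21.3 CPM (median 11.5) in dexamethasone libraries. The overlap was wider in PVN, with 3 of 15 dexamethasone libraries below the lowest vehicle library, than in CER, with 8 of 15. Cx3cr1 and P2ry12 belong to the 31 of 7924 genes tested in all 8 regions that fell in every one (0.391%). The median count of P2ry12 was 15 in vehicle and 7 in dexamethasone libraries in CER, and 17 and 9 in PVN. There it could clear the expression filter through the vehicle arm, so its place in this set is a description. With no filter on low counts it fell in all 8 regions as well, with adjusted p-values of at most 0.00781 (edgeR).

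P2ry13, the second ADP receptor at the same locus, had a median of at most 13 counts in any group, and Gpr34, the lysophosphatidylserine receptor, a median of at most 12 counts. With no filter on low counts both genes fell in 8 of 8 regions, a direction taken by 1.53% of genes in PFC, 1.47% in vCA1, 1.43% in PVN, 1.35% in CER, 1.27% in AMY, 1.24% in dCA1, 1.04% in dDG and 0.935% in vDG. In vDG, P2ry13 lay between 7.50 and 19.9 CPM (median 13.4) in vehicle libraries and between 0 and 6.71 CPM (median 2.72) in dexamethasone libraries. There the arms did not overlap, and the log2 fold change was -2.17 ± 0.28 (SE) with an adjusted p of 5.32e-07. In AMY, P2ry13 lay between 8.95 and 31.6 CPM (median 18.5) in vehicle libraries and between 0 and 16.3 CPM (median 7.38) in dexamethasone libraries, and 11 of 15 dexamethasone libraries were below the lowest vehicle library. Its log2 fold changes ran from -2.17 (vDG) to -1.39 (PFC), with adjusted p-values of at most 0.00017.

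Gpr34 in AMY lay between 9.43 and 33.0 CPM (median 17.9) in vehicle libraries and between 0 and 16.8 CPM (median 3.69) in dexamethasone libraries, and 14 of 15 dexamethasone libraries were below the lowest vehicle library. In CER it lay between 0 and 16.7 CPM (median 8.11) in vehicle libraries and between 0 and 4.88 CPM (median 1.03) in dexamethasone libraries. There the arms overlapped: 1 vehicle library, which is among the 7 absent from the authors' tables, held no Gpr34 count, and 7 of 15 dexamethasone libraries held none either. Its log2 fold changes ran from -2.13 ± 0.37 (SE) in CER to -1.38 ± 0.29 (SE) in dDG, with adjusted p-values of at most 0.00211. At these counts a single library's value is coarse, and counts summed per animal are given below.

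Tgfbr1, the type I receptor for TGF-beta, was lower by value in all 8 regions but passed the test in 1. In dCA1 it lay between 19.9 and 90.8 CPM (median 38.6) in vehicle libraries and between 17.9 and 34.3 CPM (median 24.6) in dexamethasone libraries. The arms overlapped, with 3 of 13 dexamethasone libraries below the lowest vehicle library, and the log2 fold change was -0.55 ± 0.15 (SE) with an adjusted p of 0.0168. Without the dCA1 vehicle library that stood apart it was -0.48, with an adjusted p of 0.0190. In AMY it lay between 27.7 and 59.1 CPM (median 39.2) in vehicle libraries and between 15.8 and 45.3 CPM (median 29.5) in dexamethasone libraries, with 4 of 15 dexamethasone libraries below the lowest vehicle library. In the 7 regions other than dCA1 the log2 fold changes lay between -0.40 (dDG) and -0.22 (PFC), with adjusted p-values from 0.0874 (AMY) to 0.797 (vDG). With the replicate number as a block, Tgfbr1 also passed in AMY, at -0.38 with an adjusted p of 0.0499 (edgeR).

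Csf1r, the receptor for CSF1 and IL34, passed in none of the 8 regions. In PFC it lay between 23.9 and 69.5 CPM (median 49.1) in vehicle libraries and between 33.9 and 62.7 CPM (median 49.5) in dexamethasone libraries. In PVN it lay between 27.3 and 43.1 CPM (median 33.8) in vehicle libraries and between 21.0 and 46.1 CPM (median 38.8) in dexamethasone libraries. In AMY it lay between 55.2 and 107 CPM (median 66.0) in vehicle libraries and between 43.3 and 103 CPM (median 64.7) in dexamethasone libraries. The arms overlapped in every region, with 0 to 2 dexamethasone libraries below the lowest vehicle library, and the log2 fold changes lay between -0.19 ± 0.18 (SE) in dCA1 and 0.10 ± 0.10 (SE) in PVN. The 95% interval was -0.18 to 0.32 in PFC and -0.10 to 0.31 in PVN. The widest interval, in dCA1, was -0.56 to 0.19, which leaves out a fall of the size seen for Cx3cr1. All of these Csf1r values may include reads of Hmgxb3 from the exon bases that both genes share.

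The complement subunits C1qa and C1qb likewise passed in no region. C1qb in PFC lay between 32.6 and 69.7 CPM (median 50.4) in vehicle libraries and between 38.2 and 71.9 CPM (median 49.5) in dexamethasone libraries. In CER, C1qb lay between 24.7 and 54.3 CPM (median 34.8) in vehicle libraries and between 18.9 and 53.3 CPM (median 37.7) in dexamethasone libraries. C1qa in PFC lay between 30.3 and 74.6 CPM (median 52.6) in vehicle libraries and between 29.5 and 65.7 CPM (median 43.7) in dexamethasone libraries. For both genes the arms overlapped in every region, and at most 4 of the dexamethasone libraries of a region were below its lowest vehicle library. The log2 fold changes of C1qb lay between -0.15 ± 0.13 (SE) in dDG and 0.14 ± 0.15 (SE) in dCA1. Those of C1qa lay between -0.30 ± 0.15 (SE) in dDG, the 1 region with an unadjusted p under 0.05 (0.0444, adjusted 0.364), and 0.01 ± 0.16 (SE) in PVN.

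Cx3cl1, the neuronal ligand of CX3CR1, passed in no region. In PFC it lay between 166 and 361 CPM (median 246) in vehicle libraries and between 159 and 304 CPM (median 238) in dexamethasone libraries. In AMY it lay between 80.6 and 222 CPM (median 162) in vehicle libraries and between 63.9 and 209 CPM (median 135) in dexamethasone libraries. The arms overlapped in every region, and the log2 fold changes lay between -0.23 ± 0.14 (SE) in AMY (95% interval -0.51 to 0.05, adjusted p = 0.528) and 0.01 ± 0.11 (SE) in dDG. Its 95% interval in dDG was -0.22 to 0.24.

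**Figure D2:**
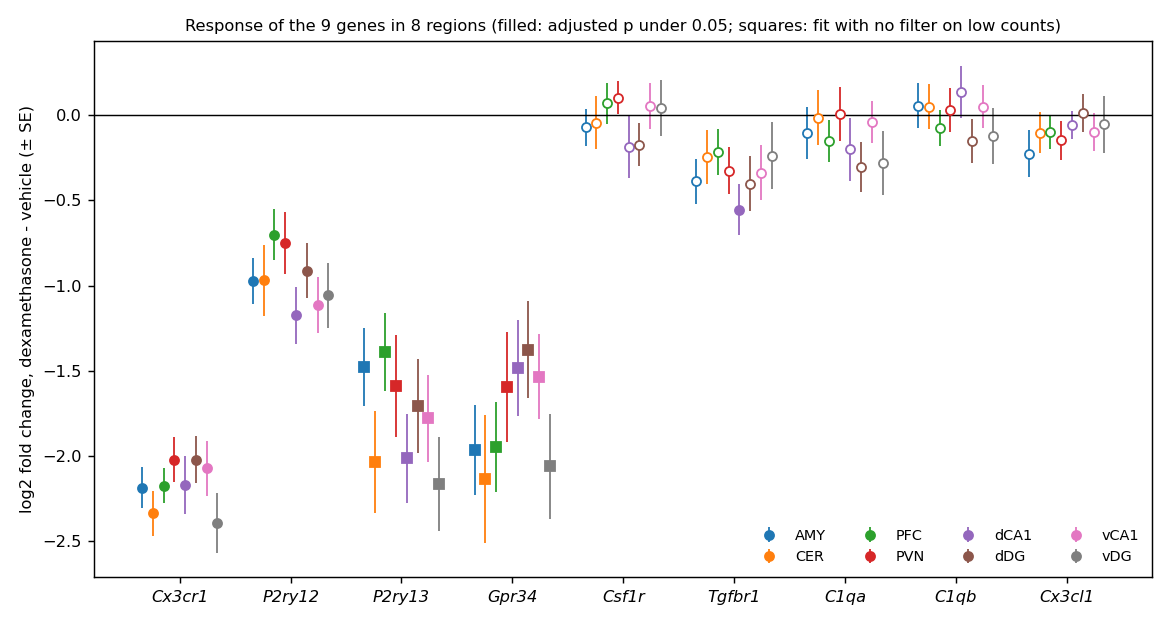
Log2 fold change of dexamethasone against vehicle (vertical axis, ± SE) for the 9 genes, with the 8 regions in colours; filled symbols passed an adjusted p of 0.05, and squares come from the fit with no filter on low counts. Cx3cr1 lies between -2.39 and -2.02, P2ry12 between -1.17 and -0.70, and Csf1r, C1qa, C1qb and Cx3cl1 between -0.30 and 0.14, with C1qa and Cx3cl1 below 0 in 7 of 8 regions.

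An interaction term between region and arm, fitted to the libraries of both arms with the animal as a block (edgeR quasi-likelihood F test), asked whether a gene's response depended on the region. None of the 9 members passed, against 1.27% of 11053 genes. Unadjusted p-values ran from 0.311 (P2ry13) to 0.914 (Cx3cl1), none was under 0.05, and all adjusted p-values were 0.9998. For Cx3cr1 the unadjusted interaction p was 0.509. A test that missed its threshold does not show that the regions responded alike.

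To give each animal 1 value and to raise the counts of the rare receptors, counts were summed over the 8 regions of each of the 26 animals that had all 8 libraries (13 per arm). This comparison was added after the regional values were seen. Of the 9 members, 5 fell (Cx3cr1, Gpr34, P2ry13, P2ry12 and Tgfbr1), none rose and 4 did not pass. Over the 13375 genes tested, 18.6% passed, 8.82% lower and 9.74% higher. The arms did not overlap for Cx3cr1, P2ry12, P2ry13 and Gpr34, which held for 0.897% of genes in this direction and for 2.07% in the other.

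Per animal, Cx3cr1 lay between 120.0 and 172 CPM (median 147) in the vehicle animals and between 25.5 and 46.7 CPM (median 33.7) in the dexamethasone animals. The arms were far apart. Its log2 fold change was -2.15 ± 0.07 (SE), a 4.44-fold fall (adjusted p = 2.08e-22, edgeR). P2ry13 lay between 10.5 and 16.4 CPM (median 13.2) in the vehicle animals and between 2.48 and 5.37 CPM (median 4.27) in the dexamethasone animals. Its log2 fold change was -1.74 ± 0.11 (SE), and every dexamethasone animal was below every vehicle animal.

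Gpr34 lay between 9.07 and 16.2 CPM (median 12.1) in the vehicle animals and between 1.78 and 5.55 CPM (median 3.57) in the dexamethasone animals, a log2 fold change of -1.79 ± 0.12 (SE) without overlap. P2ry12 lay between 27.2 and 40.0 CPM (median 32.9) in the vehicle animals and between 15.1 and 20.5 CPM (median 16.6) in the dexamethasone animals, a log2 fold change of -0.93 ± 0.06 (SE) without overlap.

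Tgfbr1 lay between 28.2 and 37.1 CPM (median 29.7) in the vehicle animals and between 20.5 and 30.4 CPM (median 24.6) in the dexamethasone animals. Of the 13 dexamethasone animals 10 were below the lowest vehicle animal, and the log2 fold change was -0.32 ± 0.06 (SE) (adjusted p = 7.87e-05). Csf1r lay between 35.5 and 53.5 CPM (median 41.8) in the vehicle animals and between 38.2 and 50.7 CPM (median 44.1) in the dexamethasone animals. The arms of Csf1r coincided, with a log2 fold change of 0.01 ± 0.06 (SE) and a 95% interval of -0.11 to 0.13. For C1qb the log2 fold change was 0.00 ± 0.06 (SE) with an interval of -0.12 to 0.13, and for C1qa -0.11 ± 0.07 (SE) with an interval of -0.25 to 0.02 (adjusted p = 0.288). Cx3cl1 lay between 155 and 204 CPM (median 178) in the vehicle animals and between 146 and 188 CPM (median 162) in the dexamethasone animals, with overlapping arms; the log2 fold change was -0.11 ± 0.05 (SE), which did not pass (adjusted p = 0.135).

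**Figure D3:**
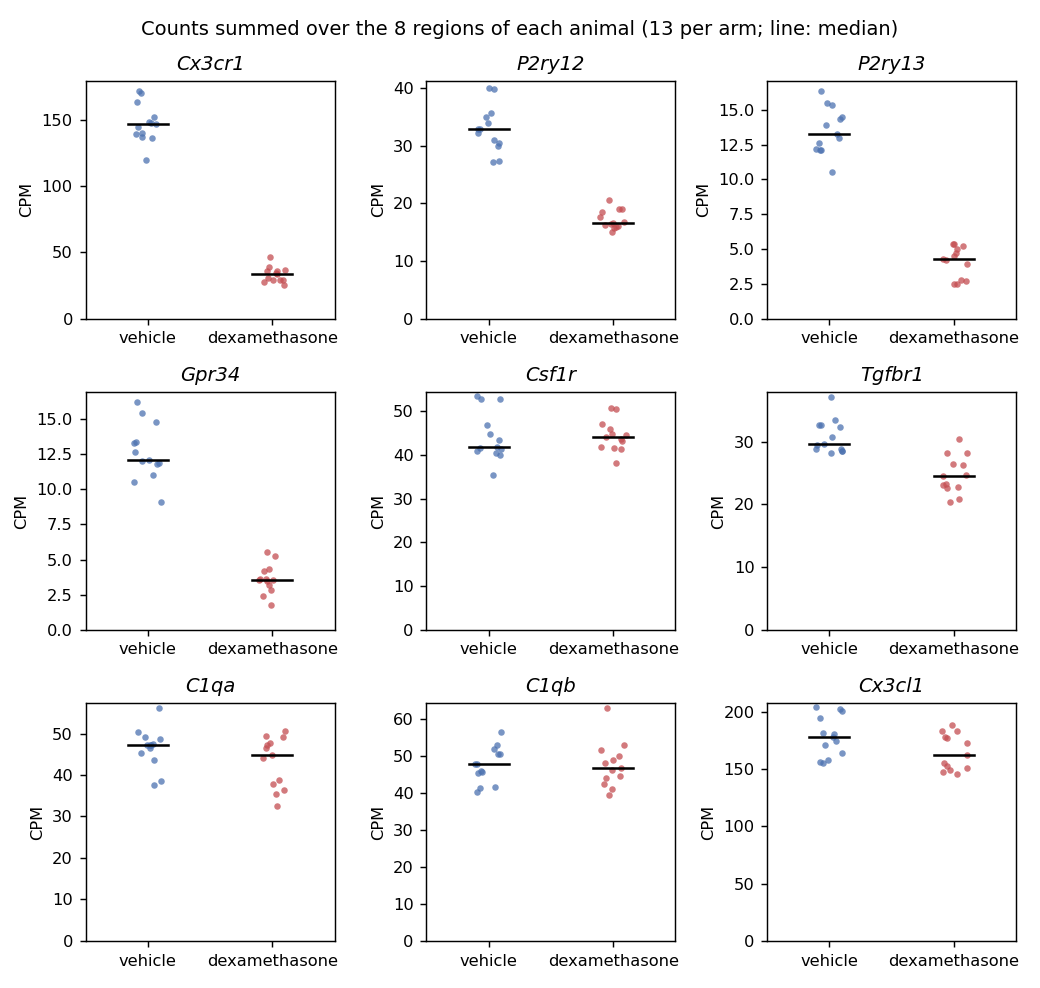
CPM from counts summed over the 8 regions (vertical axis, from 0) of the 9 genes in 13 vehicle (blue) and 13 dexamethasone (red) animals, with a line at each median. The arms are apart for Cx3cr1, P2ry12, P2ry13 and Gpr34, partly apart for Tgfbr1, and overlap for Csf1r, C1qa, C1qb and Cx3cl1.

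The receptors were then set against a complement gene of the same cells within each animal, as the log2 ratio of summed receptor counts to summed C1qb counts. C1qb was taken as the reference after its value had been seen, and since its own log2 fold change was 0.00, the ratios restate the fold changes above and carry no test. The ratio of Cx3cr1 to C1qb had a mean log2 value of 1.64 ± 0.13 (SD, n = 13) in vehicle animals and -0.51 ± 0.21 (SD, n = 13) in dexamethasone animals. The difference was -2.15. P2ry12, P2ry13 and Gpr34 differed by -0.93, -1.75 and -1.80 on this scale, with no overlap between the arms. Tgfbr1 differed by -0.32 and Csf1r by 0.01, both with overlapping arms.

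Seen per count of Csf1r, another gene of the same cells, Cx3cr1 stood at 2.87 to 3.84 (median 3.31) in vehicle animals and at 0.503 to 1.05 (median 0.705) in dexamethasone animals. P2ry12 per Csf1r count stood at 0.580 to 1.00 (median 0.745) and at 0.298 to 0.447 (median 0.394). C1qb per Csf1r count was 0.859 to 1.29 (median 1.06) in vehicle and 0.920 to 1.38 (median 1.03) in dexamethasone animals. Csf1r, too, was taken as a reference after its log2 fold change of 0.01 had been seen, so these ratios restate the fold changes. Its counts may also include reads of Hmgxb3 from the exon bases that both genes share.

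Other genes of the same cells were examined in groups from lists written with earlier results of these data known, in the counts summed per animal. Each count below stands against 8.82% lower and 9.74% higher among all genes tested. Of 17 further microglial surface genes tested, 8 fell and 1 rose (Itgb5, 0.20). Cd33, a sialic acid-binding inhibitory receptor, fell most at -0.96 ± 0.08 (SE), with 13.6 to 19.3 CPM in vehicle and 5.69 to 10.6 CPM in dexamethasone animals and no overlap. Slco2b1, an organic anion transporter, fell by 0.42 on the log2 scale, and in the regional fits passed in AMY and PFC. Tmem119 (-0.45) and Siglech (-0.42) fell by less than a log2 unit, while Trem2 (-0.04, adjusted p = 0.849) and P2ry6 (0.15, adjusted p = 0.533) did not pass.

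Of the 7 further complement genes tested, 2 fell and none rose. C3ar1, the receptor for C3a, had a log2 fold change of -1.45 ± 0.15 (SE), with no overlap between the arms. As a rare transcript it cleared the expression filter in no region, so its value rests on the sums alone. C1qc, the third chain of C1q, fell by 0.28 (adjusted p = 7.56e-07), while C1qa (-0.11) and C1qb (0.00) did not pass; whether the 3 chains differ from each other was not tested. Of 23 lysosomal genes, 4 fell, 1 rose and 18 did not pass. Those that fell were Cd68 (-0.33), Lgmn (-0.24), Laptm5 (-0.19) and Cd63 (-0.17), and cathepsins such as Ctsb (-0.04), Ctsd (0.04) and Ctss (-0.10) did not pass. The median log2 fold change was -0.17 for the further surface genes, -0.01 for complement and -0.04 for lysosomal genes, beside -0.01 over all genes tested.

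On the ligand side of the CSF1 receptor, Csf1 fell by 0.24 (adjusted p = 0.00246) and Il34 did not pass (-0.02). In the TGF-beta group of 13 genes, 1 fell (Tgfb2, -0.28) and 2 rose. Nrros, which in microglia tethers latent TGF-beta1, rose: it lay at 5.59 to 12.1 CPM in vehicle and 25.4 to 33.5 CPM in dexamethasone animals, a log2 fold change of 1.90 ± 0.08 (SE) with no overlap. Its regional means ran from 5.82 to 9.62 CPM in vehicle groups and from 22.9 to 35.1 CPM in dexamethasone groups. Nrros was low enough in vehicle to clear the expression filter through the dexamethasone arm, and missed it in dDG, so these levels are a description. Tgfb3 rose by 0.59. For the proteases that release Cx3cl1 from the membrane (Adam10, Adam17 and Bace1), 0 of 3 passed in edgeR, with unadjusted p-values of 0.212, 0.962 and 0.158. Of the receptors related to P2Y12 that were tested, P2ry1 rose by 0.41 and P2ry14, a neighbour of P2ry13, did not pass (0.18).

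Of 10 transcription factors of microglia and macrophages, 4 fell, 3 rose and 3 did not pass. Irf8 (-1.27 ± 0.09 (SE)), Spi1, which encodes PU.1 (-1.23 ± 0.11 (SE)), and Sall1, which maintains microglial identity (-1.11 ± 0.09 (SE)), fell with no overlap between the arms. The regional means of Sall1 ran from 19.8 to 33.5 CPM in vehicle and from 8.76 to 13.9 CPM in dexamethasone groups, also as a description, since it missed the filter in dCA1. Runx1 rose by 0.94, Cebpa by 0.70 and Maf by 0.35. Irf8, Spi1 and Runx1 are rare transcripts that cleared the expression filter in no region, and Cebpa cleared it in 1. Of 7 microglial activation genes that could be tested, 0 passed in edgeR and 1 had an unadjusted p under 0.05. Spp1, which encodes osteopontin, was at 0.14 there. By region it was tested in CER (-0.24) and vDG (0.48), where it did not pass, and in vCA1 (0.98). In vCA1 its mean was 8.95 CPM in vehicle and 17.2 CPM in dexamethasone libraries. It was low in vehicle there and could clear the expression filter through the dexamethasone arm, so these vCA1 values are a description. The transcription factors Spi1, Irf8, Runx1, Cebpa and Maf, and the other genes of these lists apart from Cd33, Slco2b1, Lgmn, Cd63, Nrros, Sall1 and Spp1, were named after their values were seen.

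**Figure D4:**
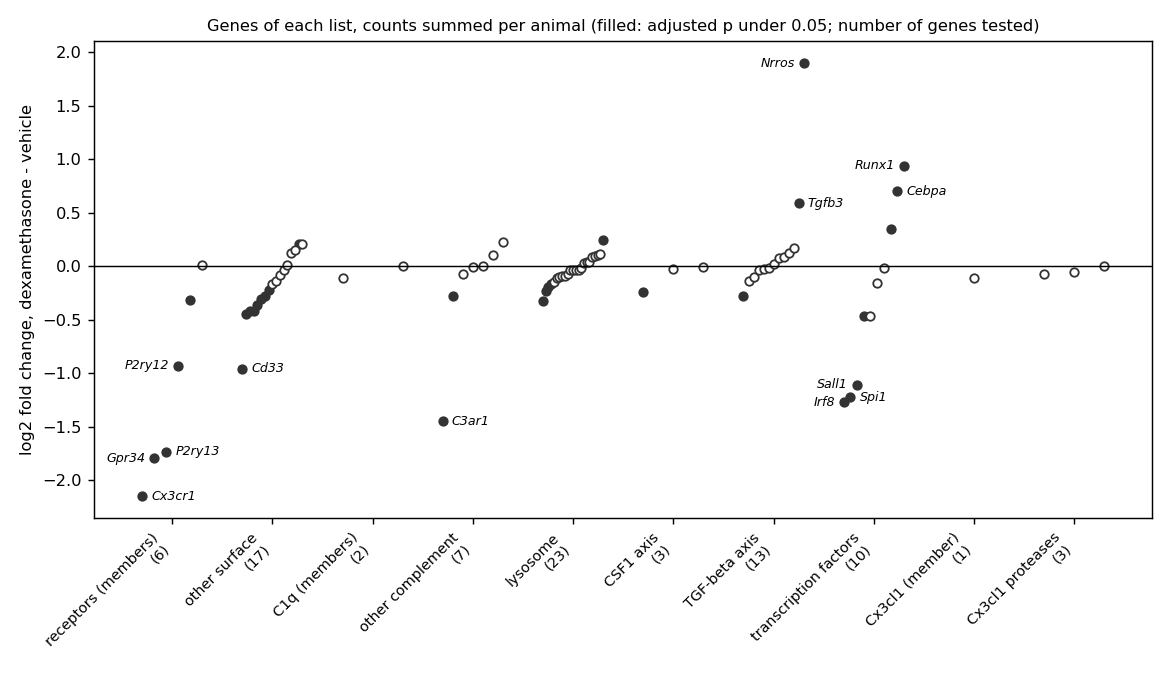
Log2 fold change of dexamethasone against vehicle (vertical axis) of every tested gene of each list in the counts summed per animal; filled circles passed an adjusted p of 0.05, the number of genes tested stands under each list, and genes past the threshold by more than 0.5 on the log2 scale are named. Cx3cr1 lies at -2.15, the lowest lysosomal gene lies at -0.33, and the transcription factors are split between both directions.

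Markers of the cell types that a punch can hold were summed in the same animals, and their counts stand against the same background shares. Of 12 microglial markers 7 fell, among them Sall1, Tmem119 and Siglech, and 5 did not pass, among them Trem2, Ctss and Cd53. The summed level of all 12 was 328 to 432 CPM in vehicle and 300.1 to 379 CPM in dexamethasone animals. The 7 border macrophage markers summed to 11.7 to 22.8 CPM and 13.7 to 28.1 CPM, and of the 4 that could be tested 1 was called higher and 3 did not pass. The 1 was Lyve1, named after its value was seen, at 0.498 to 2.26 CPM in vehicle and 1.75 to 6.01 CPM in dexamethasone animals; it is a rare transcript, low in the vehicle animals, so these levels are a description. The 10 blood leukocyte genes summed to 1.25 to 12.7 CPM and 1.01 to 7.79 CPM, and none passed the filter for testing. Of 10 neuronal markers none passed, at 6349 to 7361 CPM and 6169 to 7528 CPM. Of 7 endothelial markers 6 fell, with summed levels of 258 to 338 CPM in vehicle and 159 to 195 CPM in dexamethasone animals, among them the VEGF receptors Kdr (-1.66) and Flt1 (-0.67). The regional means of Kdr ran from 28.3 to 37.2 CPM in vehicle and from 7.61 to 15.5 CPM in dexamethasone groups. Of 6 oligodendrocyte markers 4 fell, and of 7 astrocyte markers 2 fell and 1 rose. The part of these shifts in the fall of the receptors was not tested.

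Without dexamethasone, all 9 members differed among the 8 regions (edgeR quasi-likelihood F test with the animal as a block), as did 73.3% of all genes tested; with 9 members the share is not far from this background. Cx3cr1 peaked in AMY with 229 ± 40.9 CPM (SD, n = 15), followed by dCA1, vCA1, PFC, vDG, dDG and CER, and PVN at 111 ± 18.6 CPM (SD, n = 14), a last step that did not pass. The order is that of the group means. The dCA1 mean was 174 CPM with the library that stood apart and 159 ± 43.6 CPM (SD, n = 14) without it, which then places dCA1 after vCA1; the fitted log2 difference between them was -0.01 and did not pass. Of the 7 steps between neighbours in this order, 2 passed the test, AMY above dCA1 (38.9% of genes differed between these regions) and dDG above CER (49.8%). AMY also came first for P2ry13 (19.8 ± 6.33 CPM), Gpr34 (18.8 ± 7.06 CPM), Csf1r (71.1 ± 15.4 CPM), Tgfbr1 (40.8 ± 9.76 CPM), C1qa (69.2 ± 20.6 CPM) and C1qb (67.3 ± 14.0 CPM), each as mean ± SD of 15 libraries.

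For Csf1r the step from AMY to dCA1 passed (without the library that stood apart dCA1, at 46.1 ± 15.0 CPM, SD, n = 14, came after PFC), for C1qb that from AMY to PFC (35.3% of genes), and for P2ry13, Gpr34, Tgfbr1 and C1qa no step between neighbours did. P2ry12 was highest in vCA1 at 46.6 ± 14.9 CPM (SD, n = 14), next to AMY at 45.5 ± 11.1 CPM a step that did not pass, and its step from vDG to CER passed (40.4% of genes). PVN and CER held the 2 lowest means for all 9 members. The step between these regions passed for Cx3cl1 and for none of the other 8. For those 8 which region came last is not settled: without the vehicle libraries absent from the authors' tables, the lowest mean moved from PVN to CER for P2ry12, Csf1r and C1qb and from CER to PVN for Tgfbr1. Above these, the order of Cx3cl1 was another. It was highest in PFC at 249 ± 59.0 CPM (SD, n = 15), with dDG, dCA1, vCA1, vDG, AMY and PVN after it, and lowest in CER at 91.7 ± 29.0 CPM (SD, n = 15). Its steps from PFC to dDG (35.3% of genes) and from PVN to CER (24.6%) passed.

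**Figure D5:**
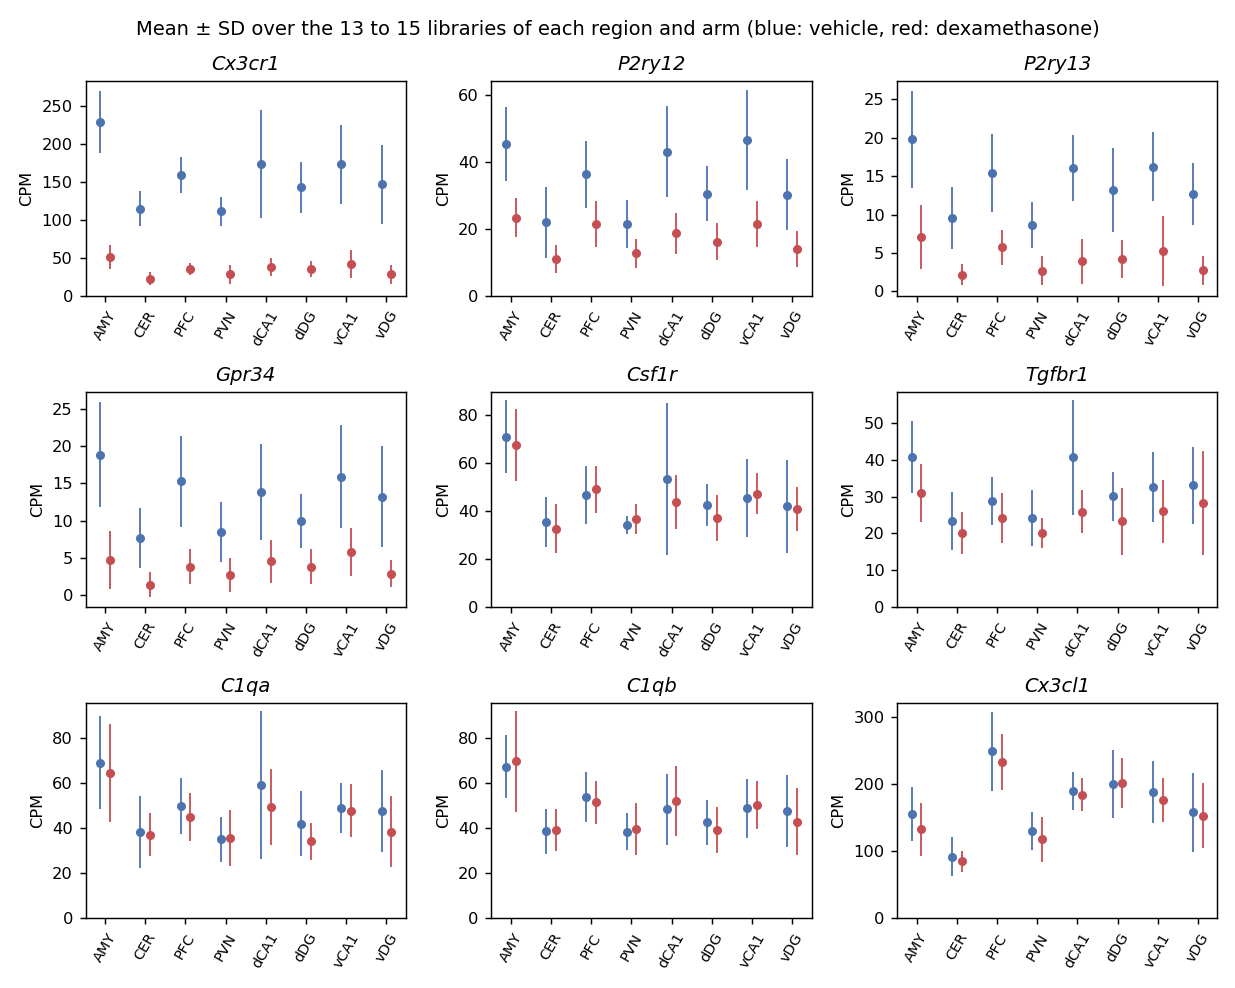
Mean CPM ± SD (vertical axis) of the 9 genes by region, with vehicle groups in blue and dexamethasone groups in red, 13 to 15 libraries each. Vehicle levels of the microglial genes are highest in AMY (vCA1 for P2ry12) and low in CER and PVN, Cx3cl1 peaks in PFC, and the red points of Cx3cr1, P2ry12, P2ry13 and Gpr34 lie below the blue in each region.

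Within regions, the libraries of vehicle animals varied together for some members. Over the vehicle libraries of 15 animals, after subtraction of each region's mean, the Pearson correlation of log2 CPM was 0.64 between Cx3cr1 and Csf1r, 0.55 between Csf1r and C1qa, 0.53 between Cx3cr1 and C1qa and 0.48 between Cx3cr1 and P2ry12. Cx3cl1 stood apart from Cx3cr1 at -0.23. Among 9879 genes with a mean of at least 10 CPM, those most like Cx3cr1 were Apoe (0.77), Glul (0.76), Mlc1 (0.74), Laptm5 (0.73) and mt-Cytb (0.71). Those most like Cx3cl1 were Calm2 (0.79), Chn1 (0.77), Fam49a (0.72), Fkbp1a (0.71) and Nrgn (0.69). The dCA1 vehicle library that stood apart is included. Without the 2 vehicle libraries absent from the authors' tables, the correlation of Cx3cr1 was 0.59 with Csf1r and 0.46 with C1qa, and its 5 most like genes held Qk (0.69) in place of mt-Cytb, with Apoe at 0.73. The 5 for Cx3cl1 were the same. These values are descriptive: the libraries share animals, punch composition and depth.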

How the data were processed

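The submitters' processing notes name STAR 2.6.0a, featureCounts 1.6.4, cutadapt, UMI-tools 0.5.4, FastQC 0.11.4, DESeq2 1.30.1, R 4.0.5 and build mm10, without their order. The deposited count table holds whole-number counts per gene, per the file headers, for 235 QuantSeq 3′ libraries with molecular identifiers. The authors also deposited 8 regional tables with 228 of the libraries, variance-stabilised and on a log2 scale, used here only in an alternative. Groups were taken from the labels. From the counts, each region was fitted with edgeR 4.0.16 in R 4.3.3: filterByExpr by arm, TMM scaling, the quasi-likelihood test and Benjamini-Hochberg adjustment over all genes tested. The interaction test fitted all libraries and the vehicle region test the vehicle libraries only, both with the animal as a block. limma 3.58.1 and DESeq2 1.42.0 gave alternatives. Interval limits are 95%, and counting error falls with depth: totals ran from 268538 to 1451422 counts. The fits were tested on simulated data before use. Of 1.5-fold changes they recovered 33.7% in PFC, 24.2% in dCA1 and 76% in the sums. Of 2-fold changes they recovered 95.7% in PFC, 89.7% in dCA1, 100% in the sums and 56.6% in the interaction test. A gene that did not pass in a region may thus still have changed by 1.5-fold. The 9 members and all lists were chosen with earlier results of these data known. Beyond the members, genes were to be named if past the threshold in 5 or more regions in 1 direction (at most 6 a list; otherwise the 2 with most regions), with the 5 genes most like Cx3cr1 and Cx3cl1. Counts summed per animal and the ratios to C1qb and Csf1r were added after the data were seen. Same-numbered libraries of both arms shared a plate in 115 of 115 pairs and a date of punching in 109, per the labels, so the number marks a shared batch. Their deviations from the group means correlated by over 0.1 in 88 pairs (median 0.27). Fits with the number as a block are an alternative. Promoters came from RefSeq on GRCm38.p6 and gene positions from the annotation of GRCm38. Some listed genes are not reported here.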

Additional observations from a re-analysis of the deposited data

Results flagged for a closer look

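The difference between the arms varied among the 8 regions for Prox1, a transcription factor of dentate granule cells. It served here as a region marker (adjusted p of the interaction = 0.00372, edgeR quasi-likelihood F test). It fell in CER (-1.04), AMY (-0.47) and PVN (-0.35) on the log2 scale, whereas in vCA1 the value was 0.80 (adjusted p = 0.0522, edgeR). In vehicle libraries the mean of Prox1 was not higher in dDG than in dCA1: it was at 521 ± 142 CPM (SD, n = 15) in dCA1 and 462 ± 253 CPM (SD, n = 15) in dDG. In vCA1 the means of Prox1 were 104 ± 39.5 CPM (SD, n = 14) in vehicle and 181 ± 111 CPM (SD, n = 15) in dexamethasone libraries. The share of dentate tissue in a punch and a response of Prox1 cannot be told apart here. None of the 9 members passed the interaction test.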

How the results depend on the processing

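The 7 members that cleared the filter were tested in every region, and the number past the threshold moved mainly with which members were tested. With DESeq2, with no filter on low counts and with limma on the authors' variance-stabilised values, 4 members passed in 7 regions and 5 in dCA1, since P2ry13 and Gpr34 were then tested as well. When at least 10 counts in every library were required, 1 passed in 6 regions and 0 in CER and PVN, where Cx3cr1 was no longer tested, and 3 members were tested and differed among vehicle regions. Cx3cr1 kept its direction and call in 84 of 84 alternatives and P2ry12 in 78 of 78. On the variance-stabilised scale, which compresses low values, the log2 differences of Cx3cr1 were smaller, down to -1.20, and those of P2ry12 down to -0.28. Values near 0 changed sign without passing in any setting. For C1qa these were 0.00399 in AMY and 0.0230 in vCA1 with libraries under RIN 5 left out, 0.0194 in CER with the replicate block and 0.0220 with date and plate, and in PVN -0.0141 with upper-quartile scaling, -0.00272 with no filter and -0.00775 with the 10-count filter. For Cx3cl1 they were -0.00625 (upper quartile), -0.00301 (10-count filter) and -0.0378 (RIN) in dDG and 0.0419 (limma) in vDG. In the sums, Csf1r was at -0.0267 with all 30 animals, -0.00471 with the authors' libraries only, -0.00678 with upper-quartile scaling and -0.00454 with the replicate block, and C1qb at -0.00767 with all 30 animals, -0.0132 with upper-quartile scaling and -0.0129 with the replicate block. The number of genes called in dDG was 316 against 511 with DESeq2, 479 with limma and 543 with the replicate block. With the 10-count filter the genes called numbered from 188 (dDG) to 345 (PFC), with 29 for the interaction and 3222 among vehicle regions.

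With the replicate block 3 members passed in AMY, where Tgfbr1 was added at -0.38 (adjusted p = 0.0499, edgeR), 3 in dCA1 and 2 in each other region; in the sums 5 passed. The block changed no other call of a member. No member passed the interaction test in any alternative run. Depth limited P2ry13 and Gpr34, with medians of at most 13 and 12 counts in a group.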
